A study of Mus musculus with 12 samples.

Results

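The collagen genes are described here in NE-4C cells, a commercially available line of neural progenitor cells derived from embryonic mouse brain and immortalized by loss of p53. They were taken as every row of the table whose gene symbol is Col, a number, the letter a and a number, which found 44 of 57010 genes. They comprise 11 fibrillar, 6 basement membrane and 9 fibril-associated collagen genes and 18 of other kinds. mRNA-Seq was performed on 12 libraries, 3 in each of 4 groups. WT NO and KO NO are WT and Faf2 KO NE-4C cells that received no all-trans retinoic acid (RA) and stand for day 0. WT RA and KO RA are the same lines after RA at 1 µM for 24 h, then growth medium, collected on day 3. RA and the days before collection changed together, so a difference with RA below cannot be told apart from one with time in culture. The replicates of a group are separate passages, the KO cells are 1 CRISPR clone of the line, and all cells, controls included, lack p53. Each comparison of KO with WT is therefore one of 1 clone with its parent line.

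Collagens are secreted proteins whose chains wind into helical trimers in the endoplasmic reticulum, where they are hydroxylated and folded before export. Fibrillar collagens assemble into the striated fibrils of skin, bone, cartilage and mesenchyme, type IV collagens form the network of basement membranes, and fibril-associated collagens decorate the surface of fibrils. In the developing brain, collagens are best known from the basement membrane at the pial surface and around vessels and from the surrounding mesenchyme. FAF2 is a membrane protein of the endoplasmic reticulum that takes part in the removal of misfolded proteins, and RA induces NE-4C cells to differentiate.

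Library totals ranged from 17370069 to 30738717 counts. The library of KO RA replicate 3 stood apart from the rest. Its TMM scaling factor was 0.394, against 0.872 to 1.28 in the other libraries, and genes of the mitochondrial genome held 23.5% of its counts, against 9.10 to 17.7%. The counts of collagens called are therefore given with and without it, as are some of those of the other gene lists. All comparisons share 1 estimate of the spread, so this library also widened the errors of comparisons it is no part of. The levels of KO RA replicate 3 given below, and its rank among the libraries, depend on its TMM factor. By library totals, it did not lie above every KO NO library for Col2a1, Col4a1, Col4a2, Col5a1 and Col26a1. Nor did it then lie above every WT RA library for Col1a2, Col5a1, Col6a2 and Col9a2. Where KO RA is said below to lie above these groups, the levels are those with TMM factors. Without TMM factors, the median log2 difference over all genes moved from −0.01 to −0.26 in WT RA against WT NO and from 0.11 to −0.17 in KO RA against KO NO, and the folds of the collagens moved with it. Faf2, the targeted gene, had 50.01, 38.8 and 36.0 CPM (counts scaled to a common library size) in WT NO, 35.1, 37.9 and 49.1 in WT RA, 21.0, 21.7 and 25.4 in KO NO and 36.1, 34.3 and 18.7 in KO RA. KO NO lay below WT NO (log2 fold change −0.87 ± 0.27 (SE), edgeR adjusted p = 0.179, or 0.0111 without KO RA replicate 3), while KO RA overlapped WT RA (−0.45 ± 0.27, adjusted p = 0.395). A count over the whole gene does not resolve the deleted part, so it does not check the KO label.

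The starts of 4 collagen genes are shown, in pairs whose mRNAs moved together. Col1a2 and Col3a1 rose with RA in both lines. Col4a5 and Col4a6 lie head to head on chromosome X, with 1342 bases between their RefSeq starts, and rose together in KO RA. The 250 bases before the RefSeq start of each gene (build GRCm38.p6, 5′ to 3′ on the gene's strand) are printed with 3 common promoter motifs in capitals. These are CCAAT, or ATTGG on the opposite strand; GGGCGG, or CCGCCC on the opposite strand; and TATAAA on the gene's strand only.
Col1a2 (chr6:4505368-4505617, forward strand): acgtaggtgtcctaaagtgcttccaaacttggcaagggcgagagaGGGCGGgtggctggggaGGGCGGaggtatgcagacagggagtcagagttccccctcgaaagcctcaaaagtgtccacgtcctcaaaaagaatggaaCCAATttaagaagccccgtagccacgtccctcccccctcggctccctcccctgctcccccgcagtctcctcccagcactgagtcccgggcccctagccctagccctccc
Col3a1 (chr1:45311288-45311537, forward strand): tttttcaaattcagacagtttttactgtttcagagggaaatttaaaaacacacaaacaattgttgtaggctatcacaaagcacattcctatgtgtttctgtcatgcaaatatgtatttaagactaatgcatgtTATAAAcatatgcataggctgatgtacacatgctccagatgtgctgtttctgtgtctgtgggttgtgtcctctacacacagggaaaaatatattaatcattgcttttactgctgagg
Col4a5 (chrX:141475169-141475418, forward strand): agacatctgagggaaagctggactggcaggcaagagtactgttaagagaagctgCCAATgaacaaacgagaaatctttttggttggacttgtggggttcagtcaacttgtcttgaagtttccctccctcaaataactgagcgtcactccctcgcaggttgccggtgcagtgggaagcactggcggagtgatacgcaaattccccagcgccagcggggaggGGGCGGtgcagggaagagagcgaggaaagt
Col4a6 (chrX:141474077-141474326, reverse strand): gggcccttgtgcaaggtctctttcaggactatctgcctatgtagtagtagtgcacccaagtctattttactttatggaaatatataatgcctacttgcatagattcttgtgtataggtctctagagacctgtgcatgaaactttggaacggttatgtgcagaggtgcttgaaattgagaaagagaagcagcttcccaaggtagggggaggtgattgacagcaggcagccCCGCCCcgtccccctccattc
The Col1a2 window held 1 CCAAT and 2 GGGCGG, the Col3a1 window 1 TATAAA, the Col4a5 window 1 CCAAT and 1 GGGCGG, and the Col4a6 window 1 GGGCGG. RefSeq windows were at hand for 35 of the 44 collagen genes, 38 windows in all. CCAAT was in 34.2% of them and in 33.8% of all 32851 windows, GGGCGG in 57.9% and 32.7%, and TATAAA in 13.2% and 7.6%. A match is a run of letters and no sign of binding.

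Of the 44 collagen genes, 32 passed the filter on low counts and were tested. The other 12 were Col4a3, Col4a4, Col5a3, Col6a3, Col6a6, Col10a1, Col17a1, Col19a1, Col20a1, Col24a1, Col25a1 and Col28a1. Col4a4 and Col10a1 were at 0 counts in all 12 libraries, and Col4a3, Col24a1 and Col28a1 had at most 3 counts in any library, the floor of detection used here. Since the deposited counts are corrected for gene length, the levels below, in CPM with TMM factors, can be set side by side between genes. At the floor, 3 counts correspond to 0.0838 to 0.145 CPM, except in KO RA replicate 3, where they correspond to 0.297 CPM.

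Collagen mRNAs summed to 203, 183 and 245 CPM in WT NO and to 234, 202 and 250.5 CPM in KO NO. They summed to 181, 321 and 189 CPM in WT RA and to 473, 378 and 292 CPM in KO RA. KO RA lay above KO NO in all 3 libraries, and its lowest library lay within the range of WT RA. By library totals without TMM factors, KO RA replicate 3 lay below every KO NO library. In bulk RNA, a change in the share of a cell type and a change in the RNA per cell cannot be told apart. Col18a1 alone, which encodes the core protein of a basement membrane proteoglycan and the precursor of endostatin, made up 46.2 ± 7.44% of the sum in WT NO (SD, n = 3) and 54.2 ± 3.89% in KO NO. Its share was 28.1 ± 1.42% in WT RA and 17.7 ± 8.23% in KO RA.

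The make-up of the sum differed between groups, as the plot of class sums shows. Fibrillar collagens summed to 51.8 ± 29.1 CPM in WT NO (SD, n = 3) and 78.7 ± 29.3 in WT RA. In the KO groups their sum was 35.2 ± 2.41 CPM without RA and 141 ± 53.6 with RA. Basement membrane collagens summed to 43.6 ± 10.3 (WT NO), 57.0 ± 19.4 (WT RA), 43.2 ± 3.78 (KO NO) and 90.8 ± 12.6 CPM (KO RA). Fibril-associated collagens were the smallest class, at 7.40 ± 4.95, 12.1 ± 3.57, 18.3 ± 3.26 and 46.8 ± 12.4 CPM in the same order. For these 3 classes every KO RA library lay above every KO NO library with TMM factors. By library totals without these factors, KO RA replicate 3 lay within the KO NO range for fibrillar collagens. For the basement membrane and fibril-associated collagens it then lay below KO NO. In the fibril-associated class, which Col9a2 led in KO, every KO NO library also lay above every WT NO library. Every KO RA library lay above every WT RA library with TMM factors, but by library totals KO RA replicate 3 did not. Without Col9a2 the sum of this class was 1.80, 1.37 and 3.91 CPM in WT NO, 6.11, 11.4 and 6.59 in WT RA, 3.22, 2.90 and 3.57 in KO NO and 11.1, 8.31 and 23.8 in KO RA, and KO overlapped WT with and without RA. The remaining collagens, which Col18a1 led, summed to 107 ± 9.49, 82.9 ± 27.0, 132 ± 22.0 and 103 ± 29.0 CPM, and KO RA overlapped KO NO.

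**Figure D1:**
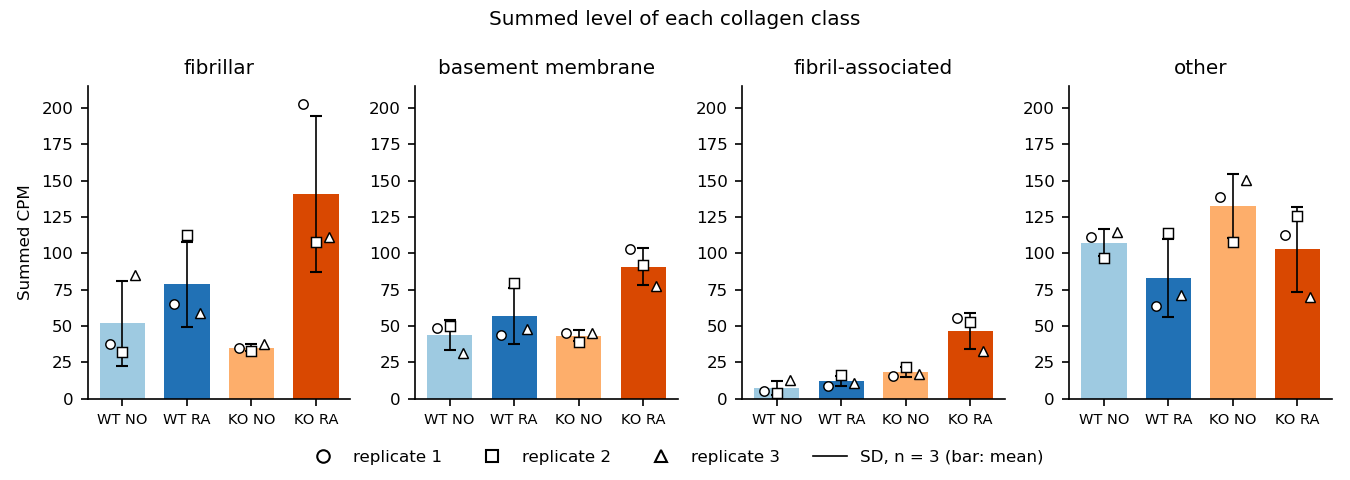
Summed level (CPM, y axis) of the fibrillar, basement membrane, fibril-associated and other collagen genes in WT NO, WT RA, KO NO and KO RA; bars are means, error bars SD (n = 3) and symbols the libraries. With TMM factors, fibrillar collagens summed to 108 to 202 CPM in KO RA against 33.1 to 37.8 in KO NO.

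Differences were tested by edgeR quasi-likelihood, with p adjusted over 16502 genes (Benjamini-Hochberg), and a gene was called at an adjusted p under 0.05. In WT RA against WT NO, 3 of the 32 tested collagen genes rose (Col1a2, Col3a1 and Col14a1) and 0 fell, where 0.321% of all tested genes rose and 0.0848% fell. In KO RA against KO NO, 14 rose and 0 fell, where 3.89% of all tested genes rose and 1.59% fell. The 14 included all 3 that rose in WT. In KO RA against WT RA, 4 were higher in KO (Col4a5, Col4a6, Col5a1 and Col9a2) and 0 lower, where 0.885% of all tested genes were higher and 0.358% lower. Col4a6 is in both of these KO RA counts although it passed the filter only through KO RA, where it is high. In KO NO against WT NO, 0 of 32 were called, where 0.788% of all tested genes were higher and 0.351% lower. With p under 0.05 before adjustment, Col9a2 and Col9a3 (2 of 32) were higher in KO NO, as were 5.81% of all tested genes, and Col1a1, Col2a1 and Col6a1 (3 of 32) lower, as were 6.37%; DESeq2 called 1 in each direction, where it called 3.31% of all genes higher and 3.19% lower.

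The median log2 difference of the 32 tested collagens was 0.62 in WT RA against WT NO and 1.54 in KO RA against KO NO, where the medians over all tested genes were −0.01 and 0.11. It was 0.87 in KO RA against WT RA and −0.23 in KO NO against WT NO, beside 0.09 and −0.02 over all tested genes. By their ranges, 12 collagens lay wholly higher and 2 wholly lower in WT RA than in WT NO, where 15.1% and 14.0% of all tested genes did. In KO RA, 17 lay wholly above KO NO and 1 wholly below, where 13.2% and 17.0% of all tested genes did. In KO RA, 8 lay wholly above WT RA and 2 wholly below, where 9.97% and 10.9% did. In KO NO, 5 lay wholly above WT NO and 6 wholly below, where 15.5% and 15.2% of all tested genes did.

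Without KO RA replicate 3, 17327 genes and 33 collagens were tested, and more calls were made. In WT RA against WT NO 7 collagens then rose, where 5.65% of all tested genes rose and 5.13% fell. With RA in KO 17 rose, the same 14 and Col4a1, Col9a2 and Col26a1, where 8.48% of all tested genes rose and 7.54% fell. In KO RA against WT RA 9 were higher, Col25a1 among them, where 4.42% of all tested genes were higher and 5.44% lower. In KO NO against WT NO 2 were higher (Col9a2 and Col25a1, the latter at 0 to 8 counts in each library compared), where 4.43% were higher and 4.35% lower. No collagen fell in any of these comparisons, with an adjusted p under 0.05, in either fit. For the 14, the log2 fold change with RA moved most for Col8a1, from 4.71 to 3.07, and Col12a1, from 5.05 to 4.22. Each of the 15 collagens called in any comparison with all libraries was also called in at least 1 comparison without KO RA replicate 3, where 19 were called.

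Whether the RA response differed between KO and WT was tested as an interaction. With all 12 libraries 0 of the 32 collagens were called by edgeR, where 0.0% of all tested genes were. With p under 0.05 before adjustment, 10 had a higher log2 fold change in KO, as had 5.53% of all tested genes, and 2 (Col9a1 and Col9a3) a lower one, as had 3.09%. DESeq2 called 4 and 1, where it called 1.37% and 0.608% of all genes. Without KO RA replicate 3, 3 collagens rose more with RA in KO than in WT, and 0 rose less, where 0.802% and 0.537% of all tested genes did. These were the fibrillar genes Col1a2 (difference of log2 folds 2.72 ± 0.46 (SE), adjusted p = 0.0294), Col2a1 (2.21 ± 0.42, adjusted p = 0.0376) and Col5a1 (2.15 ± 0.39, adjusted p = 0.0332).

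**Figure D2:**
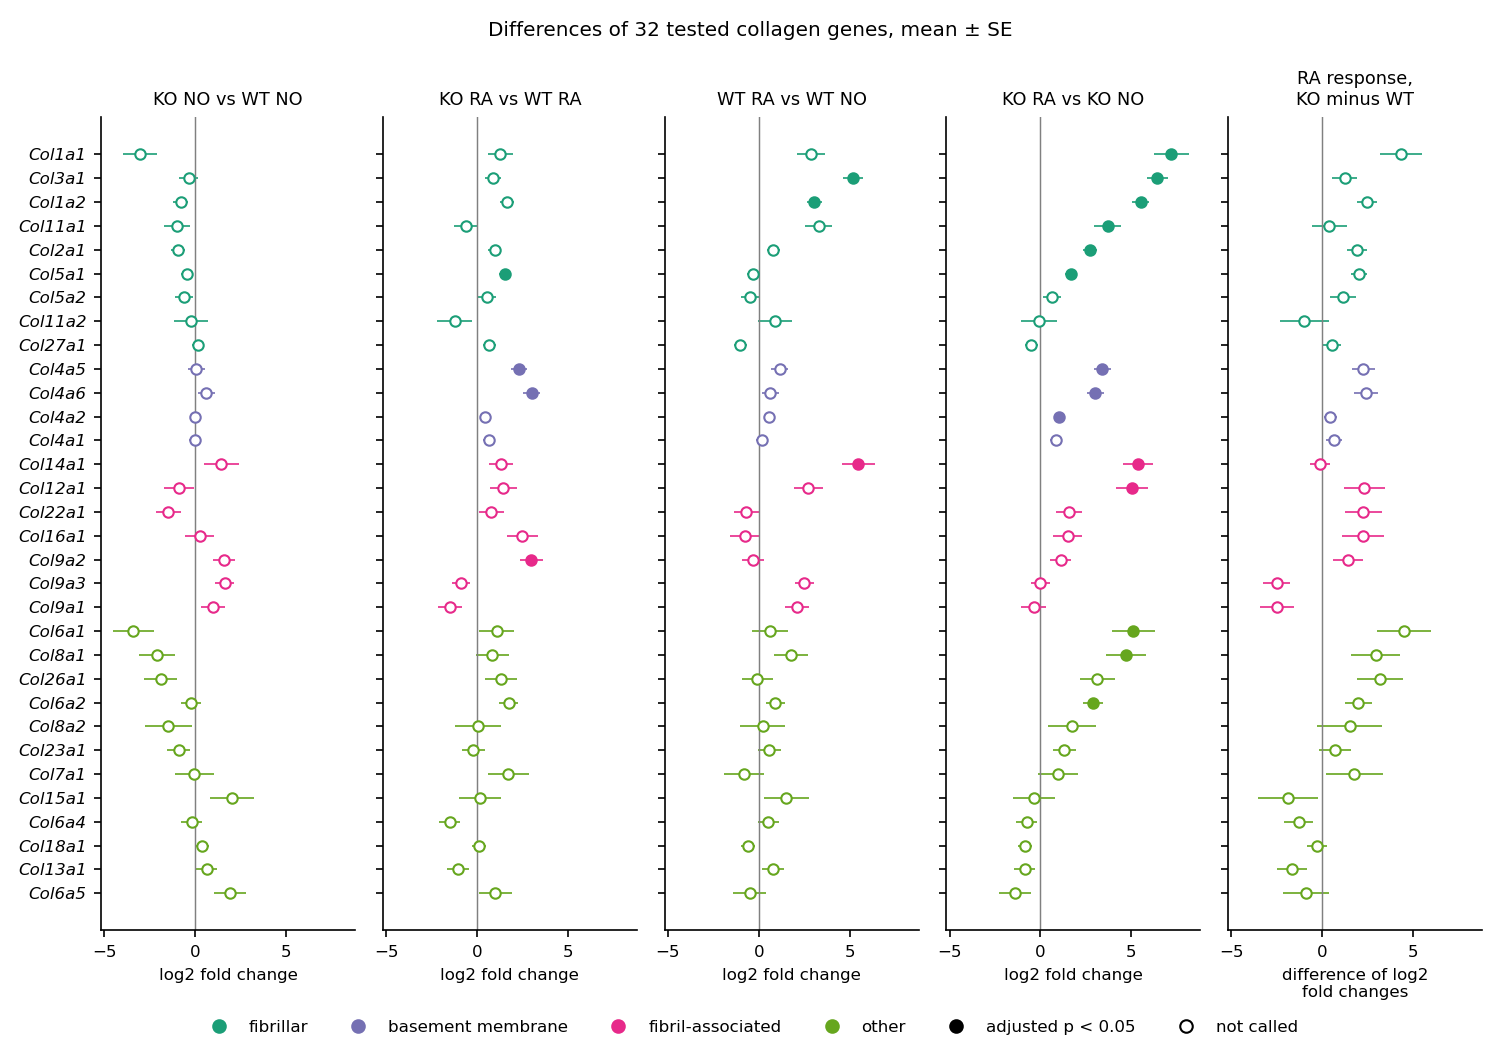
Log2 fold changes (x axis, ± SE) of the 32 tested collagen genes in 5 comparisons, coloured by class and ordered within each class by the difference between KO RA and KO NO; filled points have an adjusted p under 0.05 in edgeR with all 12 libraries. The filled points, 14 in KO RA against KO NO, 4 in KO RA against WT RA and 3 in WT RA against WT NO, lie to the right of 0, and the fitted folds of Col1a1 and Col6a1 from KO NO and of Col14a1 from WT NO rest on 3, 6 and 2 counts in those groups.

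With RA in KO, 6 of 9 tested fibrillar genes rose (median log2 fold change 2.73), as did 3 of 4 basement membrane (2.01), 2 of 7 fibril-associated (1.495) and 3 of 12 other collagens (1.13). In WT, 2 fibrillar (median 0.89) and 1 fibril-associated gene (2.11) rose, and the medians of the basement membrane and other collagens were 0.59 and 0.56. Col3a1 (ENSMUSG00000026043, GRCm39 chromosome 1, 45350698 to 45395840, forward strand) encodes the chain of type III collagen, abundant in loose connective tissue and vessel walls. It had 0.599, 0.739 and 0.488 CPM in WT NO and 20.3, 27.1 and 18.9 CPM in WT RA. In KO NO it had 0.352, 0.652 and 0.419 CPM and in KO RA 71.7, 35.3 and 15.9 CPM. The RA libraries lay above the NO libraries in both lines without overlap, and KO RA spanned the range of WT RA. Its log2 fold change with RA was 5.18 ± 0.54 in WT (SE, edgeR adjusted p = 0.00531) and 6.42 ± 0.57 in KO (adjusted p = 0.000294). Between KO RA and WT RA it was 0.89 ± 0.44 (adjusted p = 0.314), and 1.27 ± 0.29 (adjusted p = 0.0228) without KO RA replicate 3.

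Type I collagen, the main collagen of skin and bone, is built from the chains of Col1a1 and Col1a2. Col1a2 (ENSMUSG00000029661, GRCm39 chromosome 6, 4504814 to 4541555, forward strand) had 0.740, 0.665 and 0.671 CPM in WT NO and 6.11, 6.64 and 4.59 in WT RA. It had 0.439, 0.355 and 0.391 CPM in KO NO and 30.8, 13.3 and 10.4 in KO RA. The 4 groups did not overlap, with KO NO lowest and KO RA highest. Its log2 fold change with RA was 3.05 ± 0.40 in WT (SE, edgeR adjusted p = 0.0162) and 5.51 ± 0.45 in KO (adjusted p = 0.000168). Against WT RA it was 1.66 ± 0.37 higher in KO RA (adjusted p = 0.0563), and 1.92 ± 0.31 (adjusted p = 0.00592) without KO RA replicate 3. The separation of KO NO from WT NO did not pass the test (log2 fold change −0.80 ± 0.41, adjusted p = 0.485).

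Col1a1, which supplies most chains of the type I trimer, had 0.247, 0.0739 and 0.488 CPM in WT NO and 2.79, 2.47 and 0.812 in WT RA. In KO NO it had 0.0293, 0 and 0.0558 CPM, 3 counts in all, and in KO RA 6.68, 2.69 and 5.45 CPM. It was thus at the floor in KO NO and detected in every KO RA library. The ratio of KO RA to KO NO was 158 (95% exact interval of the counts 53.6 to 772), and the gene was called in this comparison (edgeR adjusted p = 0.00288). In WT the RA libraries lay above the NO libraries, but the difference of 2.87 ± 0.75 on the log2 scale was not called (adjusted p = 0.14) until KO RA replicate 3 was left out (adjusted p = 0.0367). The Col1a2 level exceeded that of Col1a1 in all 12 libraries, by a ratio of 1.38 to 15.0 in the 11 where Col1a1 was above 0.

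Col2a1 and Col11a1 encode chains of the cartilage-type fibrils, which the notochord and early neuroepithelium also express. Col2a1 had 3.45, 2.29 and 3.63 CPM in WT NO, 4.33, 7.23 and 4.92 in WT RA, 1.70, 1.24 and 1.87 in KO NO and 15.8, 10.5 and 5.65 in KO RA. KO NO was the lowest group without overlap, and KO RA lay above KO NO in all libraries. It rose with RA in KO (log2 fold change 2.73 ± 0.40, edgeR adjusted p = 0.00474), and in WT its difference was 0.81 ± 0.38 (adjusted p = 0.414). Col11a1 had 0.845, 0.702 and 1.43 CPM in WT NO, 3.99, 22.4 and 3.15 in WT RA, 0.498, 0.474 and 0.530 in KO NO and 10.4, 4.33 and 4.76 in KO RA. WT RA replicate 2 was far above the other WT RA libraries, yet both RA groups lay wholly above their NO groups. Col11a1 rose with RA in KO (3.69 ± 0.75, adjusted p = 0.0192), and in WT it reached 3.29 ± 0.73 (adjusted p = 0.085), or adjusted p = 0.0197 without KO RA replicate 3.

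Type V collagen is a minor partner of type I fibrils that sets their diameter. Col5a1 (ENSMUSG00000026837, GRCm39 chromosome 2, 27776397 to 27929526, forward strand) had 10.2, 8.46 and 11.3 CPM in WT NO, 7.74, 10.9 and 5.16 in WT RA, 6.83, 7.05 and 7.68 in KO NO and 32.05, 19.2 and 17.2 in KO RA. KO RA lay above the other groups, which together spanned 5.16 to 11.3 CPM. KO NO lay wholly below WT NO, a difference that was not called (log2 fold change −0.48 ± 0.31, edgeR adjusted p = 0.625). Col5a1 was higher in KO RA than in KO NO (log2 fold change 1.67 ± 0.31, edgeR adjusted p = 0.0131) and than in WT RA (1.53 ± 0.31, adjusted p = 0.0436). Its partner chain Col5a2 was the most abundant fibrillar collagen on average, at 20.0, 16.0 and 62.8 CPM in WT NO, 18.0, 33.8 and 18.5 in WT RA, 20.9, 20.1 and 24.0 in KO NO and 31.9, 20.2 and 49.9 in KO RA. The groups overlapped, WT NO replicate 3 was the highest library, and Col5a2 was not called in any comparison. The ratio of Col5a2 to Col5a1 was 1.89 to 5.58 in the 9 libraries of the other groups and 0.996, 1.05 and 2.89 in KO RA. The remaining tested fibrillar genes, Col11a2 and Col27a1, reached at most 3.37 CPM and were not called in any comparison.

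**Figure D3:**
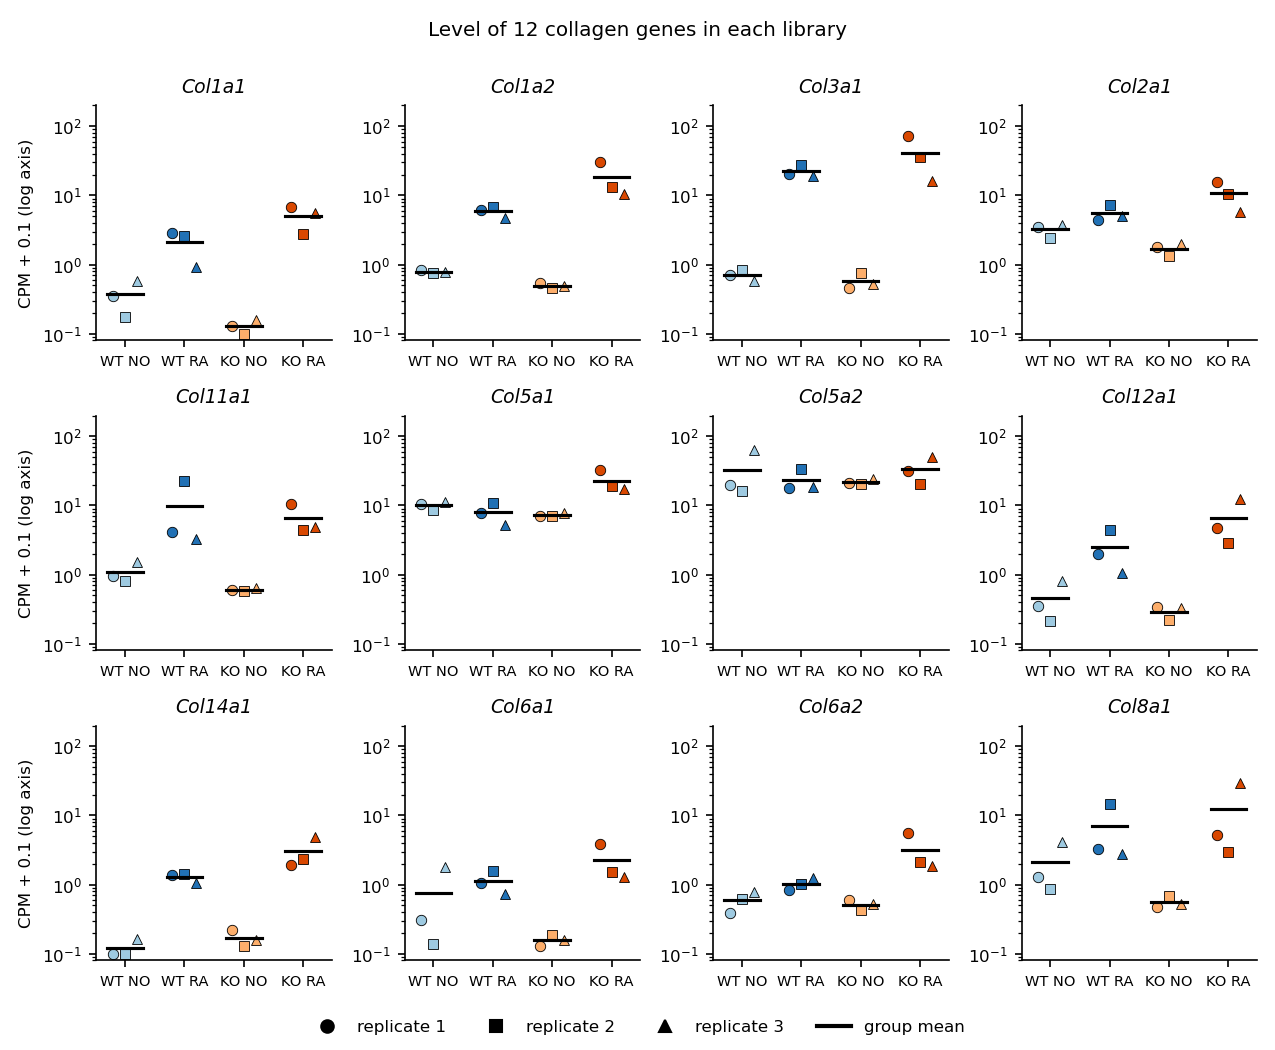
Level (CPM + 0.1, log axis) of 12 fibrillar, fibril-associated and other collagen genes in WT NO, WT RA, KO NO and KO RA; symbols are libraries and lines group means. Col3a1 went from 0.488 to 0.739 CPM in WT NO to 18.9 to 27.1 CPM in WT RA, and Col5a2 overlapped between the groups.

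Among the basement membrane collagens, Col4a1 and Col4a2, whose chains form the type IV network found in nearly all basement membranes, were the most abundant. Col4a1 had 28.3, 28.3 and 14.2 CPM in WT NO, 21.9, 37.6 and 21.8 in WT RA, 24.1, 21.6 and 24.7 in KO NO and 50.7, 46.9 and 29.8 in KO RA. Col4a2 had 19.7, 20.7 and 16.6 CPM in WT NO, 20.0, 38.7 and 25.0 in WT RA, 20.2, 16.1 and 19.5 in KO NO and 42.7, 38.5 and 30.3 in KO RA. For both genes KO RA lay wholly above KO NO with TMM factors and overlapped WT RA. By library totals without these factors, KO RA replicate 3 lay below every KO NO library for both. The genes share a promoter region, with RefSeq starts that overlap by 22 bases, and the ratio of Col4a1 to Col4a2 lay between 0.858 and 1.44 in all 12 libraries. Col4a2 rose with RA in KO by 1.00 ± 0.26 on the log2 scale (edgeR adjusted p = 0.0483). Col4a1 had a difference of 0.86 ± 0.33 (adjusted p = 0.142), which was called without KO RA replicate 3 (1.05 ± 0.30, adjusted p = 0.0365).

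Col4a5 and Col4a6 encode chains of the type IV network of specialised basement membranes, such as those of kidney and smooth muscle. Col4a5 (ENSMUSG00000031274, GRCm39 chromosome X, 140258354 to 140472231, forward strand) had 0.634, 0.924 and 0.671 CPM in WT NO, 1.35, 2.47 and 1.15 in WT RA, 0.674, 0.800 and 0.838 in KO NO and 6.50, 4.53 and 13.9 in KO RA. Col4a6 (ENSMUSG00000031273, GRCm39 chromosome X, 139948399 to 140257072, reverse strand) had 0.176, 0.259 and 0.244 CPM in WT NO, 0.288, 0.485 and 0.287 in WT RA, 0.322, 0.296 and 0.419 in KO NO and 2.93, 1.91 and 3.77 in KO RA. Every KO RA library exceeded all other libraries for both genes. With TMM factors KO RA replicate 3 was the highest for both, whereas it was the lowest KO RA library for Col3a1 and Col1a2. By library totals, without its factor of 0.394, it was also the lowest KO RA library for Col4a5 and Col4a6.

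Against KO NO, Col4a5 rose by 3.41 ± 0.48 on the log2 scale (SE, edgeR adjusted p = 0.00396) and Col4a6 by 3.03 ± 0.47 (adjusted p = 0.00589) in KO RA. Against WT RA, Col4a5 was higher in KO RA by 2.31 ± 0.46 (adjusted p = 0.0389) and Col4a6 by 3.00 ± 0.48 (adjusted p = 0.0165). Col4a6 had at most 15 counts in any library outside KO RA and 65, 56 and 38 in KO RA. It passed the filter on low counts through KO RA, where it is high, so its calls are no support for a difference. Without KO RA replicate 3 the latter were 1.73 ± 0.38 (adjusted p = 0.0213) and 2.75 ± 0.50 (adjusted p = 0.0103). In WT the RA groups also lay above the NO groups, by 1.15 ± 0.46 for Col4a5 (adjusted p = 0.33) and 0.63 ± 0.47 for Col4a6 (adjusted p = 0.667), which did not pass the test. The ratio of Col4a5 to Col4a6 was 2.75 to 3.6 in WT NO and 4.00 to 5.10 in WT RA. It was 2.0 to 2.7 in KO NO and 2.22, 2.38 and 3.68 in KO RA. Col4a3 and Col4a4, which pair with Col4a5 in the kidney glomerulus, were at 0 counts in all libraries but for 1 count of Col4a3 in WT RA replicate 3.

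**Figure D4:**
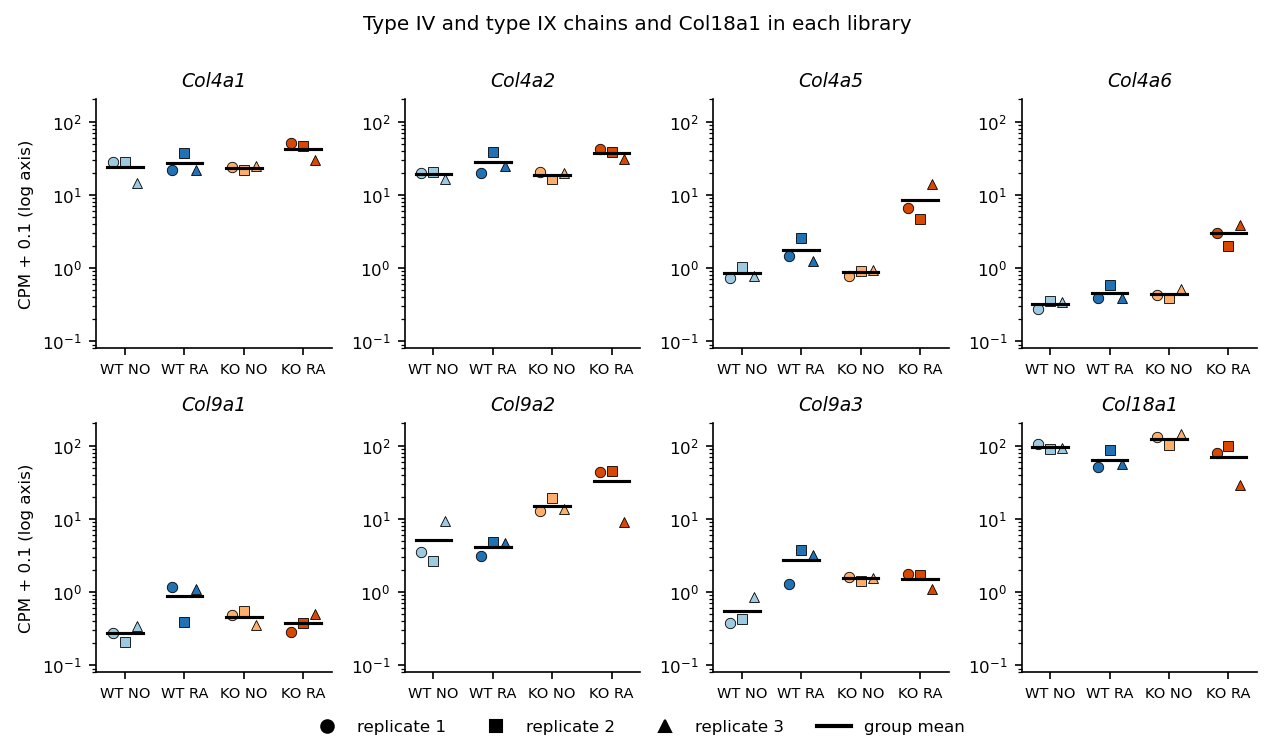
Level (CPM + 0.1, log axis) of the tested type IV collagen chains, the type IX chains and Col18a1 in WT NO, WT RA, KO NO and KO RA; symbols are libraries and lines group means. Col4a5 and Col4a6 were highest in the 3 KO RA libraries, while Col9a2 was above Col9a1 in all 12 libraries.

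Type IX collagen decorates the surface of type II fibrils and is a trimer of the chains of Col9a1, Col9a2 and Col9a3. Col9a2 (ENSMUSG00000028626, GRCm39 chromosome 4, 120896582 to 120912523, forward strand) had 3.42, 2.55 and 9.16 CPM in WT NO, 2.98, 4.66 and 4.59 in WT RA, 12.6, 19.1 and 13.4 in KO NO and 44.1, 44.3 and 8.82 in KO RA. KO lay above WT both with and without RA, with KO RA replicate 3 far below the other KO RA libraries. The difference was called in KO RA against WT RA (log2 fold change 2.99 ± 0.62, edgeR adjusted p = 0.0473). In KO NO against WT NO it was 1.57 ± 0.59 (adjusted p = 0.294), and it was called without KO RA replicate 3 (1.57 ± 0.40, adjusted p = 0.0382), which is in neither group.

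The other chains of type IX were less abundant than Col9a2 in all 12 libraries, and neither was called with all libraries. Col9a3 had 0.282, 0.333 and 0.763 CPM in WT NO, 1.20, 3.64 and 3.11 in WT RA, 1.52, 1.33 and 1.45 in KO NO and 1.67, 1.60 and 0.991 in KO RA. Col9a1 ranged from 0.111 to 0.244 CPM in WT NO, 0.291 to 1.06 in WT RA, 0.251 to 0.444 in KO NO and 0.181 to 0.396 in KO RA. For both, WT RA lay wholly above WT NO, whereas KO RA overlapped KO NO. With RA, Col9a3 differed by 2.51 ± 0.53 in WT (adjusted p = 0.0765, or 0.0142 without KO RA replicate 3). The ratio of Col9a2 to Col9a1 was 19.4 to 37.5 in WT NO, 2.82 to 16.0 in WT RA, 33.2 to 53.4 in KO NO and 244, 162 and 22.3 in KO RA, and KO NO overlapped WT NO.

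Col12a1 and Col14a1 encode the fibril-associated collagens of type I fibrils in tendon, fascia and other dense mesenchyme. Col12a1 had 0.247, 0.111 and 0.702 CPM in WT NO, 1.87, 4.32 and 0.955 in WT RA, 0.234, 0.118 and 0.223 in KO NO and 4.65, 2.76 and 12.3 in KO RA. It rose with RA in KO (log2 fold change 5.05 ± 0.87, edgeR adjusted p = 0.00961), and in WT it differed by 2.72 ± 0.79 (adjusted p = 0.184, or 0.0368 without KO RA replicate 3). Col14a1 had 0, 0 and 0.0610 CPM in WT NO, 2 counts in all, and 1.30, 1.31 and 0.955 in WT RA. It was thus at the floor in WT NO and detected in all WT RA libraries, at a ratio of 52.3 (95% exact interval of the counts 14.0 to 440.3, edgeR adjusted p = 0.0359). It had 0.117, 0.0296 and 0.0558 CPM in KO NO and 1.85, 2.25 and 4.86 in KO RA, a rise of 5.36 ± 0.83 (adjusted p = 0.00597). Col16a1 and Col22a1, at most 3.96 CPM, were not called in any comparison.

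Type VI collagen forms beaded filaments around cells. Col6a1 had 0.211, 0.0370 and 1.71 CPM in WT NO, 0.961, 1.45 and 0.621 in WT RA, 0.0293, 0.0889 and 0.0558 in KO NO and 3.79, 1.43 and 1.19 in KO RA. No KO NO library exceeded 3 counts, and the ratio of KO RA to KO NO was 38.7 (95% exact interval of the counts 17.3 to 107, edgeR adjusted p = 0.0336). Col6a2 had 0.282, 0.517 and 0.671 CPM in WT NO, 0.721, 0.921 and 1.15 in WT RA, 0.498, 0.326 and 0.419 in KO NO and 5.51, 2.01 and 1.78 in KO RA. It rose with RA in KO (log2 fold change 2.90 ± 0.55, adjusted p = 0.0138) and lay wholly above WT RA (1.74 ± 0.53, adjusted p = 0.139, or 0.0373 without KO RA replicate 3). Col6a3, the chain that completes the classic trimer, had at most 0.143 CPM outside KO RA and 1.35, 0.238 and 0 CPM in KO RA. Col6a4 and Col6a5 were not called in any comparison.

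Col18a1 (ENSMUSG00000001435, GRCm39 chromosome 10, 76888012 to 77002390, reverse strand) was the most abundant collagen in 11 of 12 libraries. It had 105, 89.7 and 92.3 CPM in WT NO, 50.5, 86.4 and 56.2 in WT RA, 129.9, 100.4 and 143 in KO NO and 79.4, 99.7 and 29.1 in KO RA. With TMM factors the RA libraries lay wholly below the NO libraries in both lines, opposite to Col3a1 and Col1a2. In KO this separation was narrow (99.7 against 100.4 CPM). By library totals without TMM factors, KO RA replicate 2 lay above KO NO replicate 2, so the KO groups overlapped, while the WT groups stayed apart. The differences were −0.57 ± 0.39 in WT (edgeR adjusted p = 0.615) and −0.84 ± 0.39 in KO (adjusted p = 0.201), and neither passed the test. KO RA replicate 3 was the exception to the ranking, with Col5a2 at 49.9 CPM.

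Col8a1, a short-chain collagen of vessel walls and the corneal endothelium, had 1.20, 0.776 and 4.00 CPM in WT NO, 3.22, 14.6 and 2.63 in WT RA, 0.381, 0.592 and 0.419 in KO NO and 5.10, 2.83 and 29.2 in KO RA. It rose with RA in KO (log2 fold change 4.71 ± 1.08, edgeR adjusted p = 0.0318), by 3.07 ± 0.84 (adjusted p = 0.032) without KO RA replicate 3, its highest library. Col26a1 had 1.41, 0.407 and 9.92 CPM in WT NO, 3.12, 4.75 and 3.34 in WT RA, 0.762, 1.33 and 1.06 in KO NO and 11.6, 13.0 and 3.07 in KO RA. KO RA lay wholly above KO NO, by 3.14 ± 0.94 (adjusted p = 0.0794), and was called without KO RA replicate 3 (3.53 ± 0.92, adjusted p = 0.0264). Col25a1, a transmembrane collagen of neurons, was at 0 counts in the 3 WT NO libraries and at 0.234, 0.178 and 0.112 CPM in KO NO (8, 6 and 4 counts). It had 0.0481, 0 and 0.0478 CPM in WT RA and 1.08, 0.681 and 0.297 in KO RA, a ratio of 23.8 (95% exact interval of the counts 6.23 to 202). It failed the filter with all libraries and passed it without KO RA replicate 3 through the other KO RA libraries, where it is high, so its calls there are no support for a difference.

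WT NO replicate 3 exceeded both other WT NO libraries by more than a factor of 2 in 11 of the 32 tested collagens, among them Col5a2, Col8a1 and Col26a1, and WT RA replicate 2 exceeded both others in 7, among them Col11a1 and Col8a1. In KO NO such excesses were found in 2, 0 and 1 collagens in the 3 libraries, and in KO RA in 5, 1 and 5. The median absolute log2 difference of the tested collagens from the other libraries of the group was 0.18 to 0.40 in KO NO and 0.43 to 0.96 in the other groups. Over all tested genes this difference was 0.19 to 0.21 in KO NO and 0.23 to 1.18 in the other groups, so KO NO was also the tightest group there. The SD of the fibrillar sum was 2.41 CPM in KO NO against 29.1 in WT NO.

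Genes that make, export and use collagens are given first for the fit with all libraries. Of all tested genes, 3.89% rose with RA in KO and 1.59% fell. Of 18 tested enzymes and chaperones of collagen modification, 4 rose with RA in KO and 0 fell. They were the lysyl hydroxylase Plod2 (log2 fold change 2.46 ± 0.43, edgeR adjusted p = 0.0102), the prolyl hydroxylases P4ha3 (4.43 ± 0.52, adjusted p = 0.00142) and P3h2 (1.70 ± 0.40, adjusted p = 0.0357), and the prolyl isomerase Fkbp14 (2.65 ± 0.55, adjusted p = 0.0213). Plod2 had 14.5, 27.6 and 21.7 CPM in KO NO and 72.7, 97.2 and 182 in KO RA. The collagen chaperone Serpinh1 (HSP47) had 34.3, 32.1 and 94.0 CPM in WT NO, 46.2, 86.7 and 48.6 in WT RA, 153, 153 and 148 in KO NO and 292, 213 and 328 in KO RA. Serpinh1 was higher in KO RA than in WT RA (2.20 ± 0.43, adjusted p = 0.0376). The most abundant genes of the list, P4hb and Ppib, were not called in any comparison. Of 10 tested genes of procollagen export, of which Sec13 and Sec31a were the most abundant, 0 were called with all libraries. Without KO RA replicate 3, 6 of 19 enzymes and chaperones rose with RA in KO and 0 fell, and 2 export genes rose (Creb3l2 and Sec24d) and 2 fell (Sec13 and Klhl12). In that fit 8.48% of all tested genes rose and 7.54% fell. In KO RA against WT RA that fit called 3 enzymes and chaperones higher, and 2 export genes higher and 1 lower. Of all tested genes, 4.42% were higher and 5.44% lower. In WT RA against WT NO that fit called P3h3, P4ha1, Plod2 and Sec23a higher and Crtap, Creb3l1 and Sec13 lower. There 5.65% of all tested genes rose and 5.13% fell.

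Of 11 tested genes of procollagen processing and crosslinking, the lysyl oxidases Loxl1 and Lox were called higher in KO RA than in WT RA. Of all tested genes, 0.885% were higher and 0.358% lower there. Loxl1 had 0.810, 0.887 and 0.244 CPM in WT NO, 1.06, 1.31 and 1.77 in WT RA, 11.0, 9.36 and 11.3 in KO NO and 24.7, 21.4 and 14.4 in KO RA. With all libraries it was the 1 gene of these pathway lists called in KO NO against WT NO (log2 fold change 4.03 ± 0.44, edgeR adjusted p = 0.00233), and it was also higher in KO RA than in WT RA (3.87 ± 0.43, adjusted p = 0.00238). Lox differed likewise (3.42 ± 0.59, adjusted p = 0.0229). Loxl2 (2.23 ± 0.45, adjusted p = 0.0192) and the procollagen C-proteinase Bmp1 (1.62 ± 0.42, adjusted p = 0.047) rose with RA in KO, while Pcolce2, an enhancer of that proteinase, fell by 2.92 on the log2 scale (SE 0.27, adjusted p = 0.000366). Pcolce2 was also lower in KO RA than in WT RA (−1.55 ± 0.27, adjusted p = 0.0221), and Pcolce, with Loxl2 the most abundant of the list, was not called with all libraries. Without KO RA replicate 3, which is in neither group, 6 further genes of the pathway lists were called in KO NO against WT NO, with Serpinh1, Klhl12 and Nid2 higher and P4ha3, Pcolce and Pxdn lower. Of all tested genes, 4.43% were higher and 4.35% lower there. In WT RA against WT NO that fit called Loxl2 higher and Pcolce2 lower, where 5.65% of all tested genes rose and 5.13% fell.

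Of 8 tested collagen receptors, 3 rose with RA in KO and 0 fell, where 3.89% of all tested genes rose and 1.59% fell. Ddr1 (log2 fold change 2.40 ± 0.62, edgeR adjusted p = 0.0483) and Adgrg6 (2.19 ± 0.34, adjusted p = 0.00626) were expressed in all groups. Ddr2 was at 0 in WT NO and had 0.721, 1.12 and 1.53 CPM in WT RA. It had 0.0293, 0 and 0.0279 CPM in KO NO and 6.64, 1.81 and 0.297 in KO RA (adjusted p = 0.0171 against KO NO). The last value is at the floor of 3 counts. Itgb1 and Mrc2, the most abundant receptors, were not called in any comparison. Of 6 tested genes of collagen degradation the inhibitor Timp2 rose (1.28 ± 0.27, adjusted p = 0.0204), with Timp1 and Timp3 the most abundant. Of 10 basement membrane partners Nid1 rose (2.19 ± 0.55, adjusted p = 0.0423), with Sparc and Nid2 the most abundant, both calls being of KO RA against KO NO with all libraries. When KO RA replicate 3 was left out, Timp3 also rose there, as did Lama1, while Nid2 and Lama5 fell, and the same 3 receptors rose. In that fit 8.48% of all tested genes rose and 7.54% fell. Adgrg1, Ddr2 and Lama1 also rose in WT RA against WT NO in that fit, where 5.65% of all tested genes rose and 5.13% fell.

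Markers of other cell types were also called. Of all tested genes, 3.89% rose and 1.59% fell in KO RA against KO NO. In WT RA against WT NO, 0.321% rose and 0.0848% fell. Of 12 mesenchymal markers 6 rose in KO RA against KO NO (Acta2, Postn, Prrx1, Prrx2, Snai2 and Twist2) and 1 in WT RA against WT NO (Prrx1). Their summed level was 62.6 to 80.0 CPM in WT NO, 110 to 170 in WT RA, 51.5 to 57.1 in KO NO and 145 to 709 in KO RA, and none was at 0 in all libraries. Within KO RA the sum was 256, 145 and 709 CPM, and that of all collagens 473, 378 and 292 CPM. The opposite ranks of replicate 3 in these 2 sums rest on its TMM factor. By library totals without TMM factors, replicate 1 was the highest KO RA library for both. The ranks of single markers that follow are also those with TMM factors. In KO RA replicate 3 most of the marker sum came from Dcn (345 CPM), Acta2 (210) and Postn (80.8). Lum and Prrx2 were also highest there, Thy1 in replicate 2, and Pdgfra, Pdgfrb, Twist1, Twist2, Prrx1 and Snai2 in replicate 1. Prrx1, a transcription factor of mesenchyme, had 0.669, 0.591 and 0.610 CPM in WT NO, 10.7, 11.3 and 15.9 in WT RA, 0.205, 0.267 and 0.475 in KO NO and 37.1, 14.5 and 16.8 in KO RA. Of 4 tested endothelial markers 3 rose in KO RA against KO NO (Emcn, Kdr and Tek), at a summed level of all 7 listed of 6.64 to 14.9 CPM against 1.13 to 2.12. These 3 passed the filter on low counts through KO RA, where they are high, so their calls are no support for a difference. Of 8 neural progenitor markers 4 rose (Cdh2, Fabp7, Nes and Sox1) and 0 fell there, of 6 neuronal markers 2 rose (Map2 and Tubb3), of 5 tested neural crest markers 2 rose (Ets1 and Tfap2b), and of 5 tested endoderm markers 0 were called. Without KO RA replicate 3, 7 mesenchymal, 5 endothelial, 5 neural progenitor, 2 neuronal, 3 neural crest and 2 endoderm markers (Gata4 and Sox17) rose there, and 1 neural progenitor marker (Otx2) fell. In that fit 8.48% of all tested genes rose with RA in KO and 7.54% fell. With all libraries, 1 neural crest marker rose in WT RA against WT NO (Tfap2b). Without KO RA replicate 3, 3 mesenchymal, 1 endothelial, 3 neural progenitor, 2 neuronal and 2 neural crest markers rose in WT. Rbfox3 (neuronal) and Foxd3 (neural crest) fell there, where 5.65% of all tested genes rose and 5.13% fell. The summed level of the neural progenitor markers was 281 to 336 CPM in WT NO, 314 to 344 in WT RA, 266 to 307 in KO NO and 336 to 431 in KO RA, with none at 0. The neuronal markers summed to 77.6 to 107 CPM in WT NO, 138 to 158 in WT RA, 69.5 to 87.2 in KO NO and 141 to 203 in KO RA. The part of these cell types in the collagen changes was not tested. Between the lines, with all libraries, Pax6 (neural progenitor), Gata4 (endoderm) and Foxd3 (neural crest) were called lower in KO NO than WT NO, Pax6 and Foxd3 also lower in KO RA than WT RA, and Fabp7 (neural progenitor) and Ets1 (neural crest) higher there. Of all tested genes, 0.351% were lower in KO NO, and in KO RA 0.885% were higher and 0.358% lower.

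The calls differed in how far they rested on single libraries. When each of the 12 libraries was left out in turn, 7 of the 14 genes that rose with RA in KO were called each time, namely Col1a1, Col1a2, Col2a1, Col3a1, Col4a5, Col4a6 and Col14a1. Without any 1 of the KO NO libraries the count fell from 14 to 7, while the share of all tested genes that rose fell from 3.89% to between 0.879% and 1.0%. In WT, Col3a1 was called in 11 of 12 fits (not without WT NO replicate 1, adjusted p = 0.0562), Col1a2 in 7 and Col14a1 in 1. In KO RA against WT RA, Col4a6, which passed the filter through KO RA, was called in 9 of 12 fits, Col4a5 and Col5a1 in 3 each and Col9a2 in 2. None of them was called without any 1 of the WT RA libraries. The share of all tested genes called higher then fell from 0.885% to between 0.109% and 0.156%. The direction was kept in all of these fits.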

How the data were processed

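mRNA of NE-4C cells (4 groups of 3) was sequenced. The authors ran nf-core/rnaseq with default settings (STAR, Salmon, GRCm39) and deposited estimated counts per gene, obtained by rescaling TPM to the library total and thus corrected for gene length; the submitters' processing notes also name DESeq2. Such a count is not a number of fragments. Intervals of counts treat it as one, so they only approximate counting error and leave out the spread between libraries. Strand use is not given in the sources used here, so reads shared with overlapping antisense genes (Col4a1 with Col4a2, Col18a1 with Slc19a1, Col9a3 with Tcfl5) cannot be told apart.

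Counts were rounded, filtered with edgeR's filterByExpr (16502 genes) and fitted in R 4.3.3 with edgeR 4.0.16 (robust quasi-likelihood, TMM factors, 1 coefficient per group, 12 libraries, 5 comparisons; common dispersion 0.215, or 0.116 without KO RA replicate 3). Errors of log2 fold changes are standard errors. P-values measure the spread between passages. Alternatives used DESeq2 1.42.0 and limma 3.58.1. The fit was tested on simulated data. Class sums had no test. Genes named in full were those called with all libraries or without KO RA replicate 3 and the 3 most abundant tested of each class; of other lists, called genes and the 2 most abundant. The members, classes and lists were chosen with earlier results of these data known.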

Additional observations from a re-analysis of the deposited data

How the results depend on the processing

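The counts of collagens called depended on the test and on single libraries more than their directions did: over 36 pairs of a named collagen and a comparison, 544 values under other settings kept the direction and the call, 116 lost the call, 45 gained it and 0 reversed. In KO NO against WT NO, 1 collagen was higher and 1 lower with DESeq2 (3.31% and 3.19% of all genes) and 2 were higher with limma-voom and sample quality weights (10.9%), against 0 in the reported fit. In KO RA against WT RA (4 higher), 7 were higher with DESeq2 (5.3% of all genes), 11 with limma-voom (9.79%), 1 with genes of at least 1 count in any library (0.388%), 1 with at least 10 counts in every library (0.466%), 0 with only the libraries of the groups compared (0.108%) and 0 without TMM factors (0.485%). In WT RA against WT NO (3 higher), 7 were higher with DESeq2 (3.27%), 10 higher and 1 lower with limma-voom (10.8% each), and 0 higher without TMM factors (0.0%). For RA in KO (14 higher), 8 were higher with at least 10 counts in every library (4.1%), where 14 collagens were tested, and 6 without TMM factors (0.745%). In the interaction, 4 were higher with DESeq2 (1.37%), 1 lower with DESeq2 (0.608%), and 4 higher with limma-voom (3.56%). The causes were not tested. Leaving out each library in turn gave 0 to 2 higher in KO NO against WT NO (0.202 to 4.43% of all genes), 0 to 9 in KO RA against WT RA (0.109 to 4.42%), 0 to 7 in WT RA against WT NO (0.0 to 5.65%), 7 to 17 in KO RA against KO NO (0.879 to 8.48%) and 0 to 3 in the interaction (0.0 to 0.802%), each collagen count highest without KO RA replicate 3. Without TMM factors the class sums moved to 40.6 CPM (fibrillar, KO NO), 49.9 CPM (basement membrane, KO NO) and 119 CPM (other, WT NO). In the fibrillar, basement membrane and fibril-associated classes, KO RA replicate 3 then no longer lay above every KO NO library.

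With the replicate number as a block, 0 collagens were called between KO and WT with or without RA and 0 in the interaction. Of all genes, 0.303% were higher and 0.0364% lower in KO NO against WT NO. In KO RA against WT RA these shares were 0.297% and 0.0606%, and in the interaction 0.0% were called. With this block 2 collagens rose with RA in WT (0.0545% of all genes) and 11 in KO (2.08%). The deviations of equally numbered libraries correlated at −0.17 to 0.04, so the numbers do not pair the libraries. Collagens at a few counts in a group, such as Col1a1 and Col6a1 in KO NO and Col14a1 in WT NO, limit how well a fold is known, and 12 collagens were too low to test.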
